A study of Saccharomyces cerevisiae with 12 samples.

Results

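The genes described here are those for building ribosomes in the budding yeast Saccharomyces cerevisiae, chosen by name: every gene whose standard name is UTP, NOP, RRP, NOC, NSA or RPA followed by a number only. The rule found 65 genes among the 7192 features of the count table, and all 65 had enough counts to be tested. RNA was sequenced from 12 wild-type yeast samples grown in rich glucose medium (YPD) to the middle of exponential growth. The control group was 6 samples with no treatment. The lectin group was 6 samples incubated with the lectin of the clam Cyclina sinensis (CSL), a protein that binds sugars and that the study's title describes as specific for N-acetylgalactosamine and mannose. The labels used here give neither the dose of the lectin nor the time of exposure. The design text calls the samples of a group biological replicates but does not say which step was done separately, so that the p-values measure the spread between these samples, which may be partly technical. Each sample is called control or lectin with the number from its title.

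A ribosome begins in the nucleolus, where RNA polymerase I transcribes the long precursor of the ribosomal RNAs. Many assembly factors then fold, modify and cut the precursor. The UTP proteins and several NOP and RRP proteins form the small-subunit processome, the particle that assembles on the fresh transcript. Most NOC and NSA proteins and many other NOP and RRP proteins accompany the large subunit. Small nucleolar ribonucleoproteins (snoRNPs) guide chemical modification, and the exosome, a ring of subunits with attached nucleases, trims RNA from its 3′ end. In yeast these genes are known as a regulon that follows growth rate and nutrient signals.

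With the lectin, the regulon did not move as a block. Of the 65 genes, 7 rose and 6 fell at an adjusted p under 0.05 (DESeq2 Wald test, adjusted over all 6237 tested genes), and 52 were not called. The 13 called genes were 20% of the members, against 31.5% of all tested genes (15.4% higher and 16.1% lower). The median log2 fold change, lectin over control, was 0.022 over the members and 0.0017 over all tested genes, and 36 members lay above 0 and 29 below it. Changes were small, from -0.27 for NOP9 to 0.43 for NOP16, and 42 members lay within 0.1 of 0 on the log2 scale. No member reached the log2 change of 1 that the design text sets as the study's own threshold. With edgeR's quasi-likelihood test 12 members were called, 6 in each direction, against 29.1% of all genes (14.2% higher and 15% lower). In 4 members (6.15%) the 2 groups were fully separated in their normalized counts, which are read counts divided by each library's size factor. NOP16 and UTP5 were higher and NOP9 and UTP8 lower in this way, and the background was 12.6% of all tested genes (5.85% higher and 6.72% lower).

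**Figure D1:**
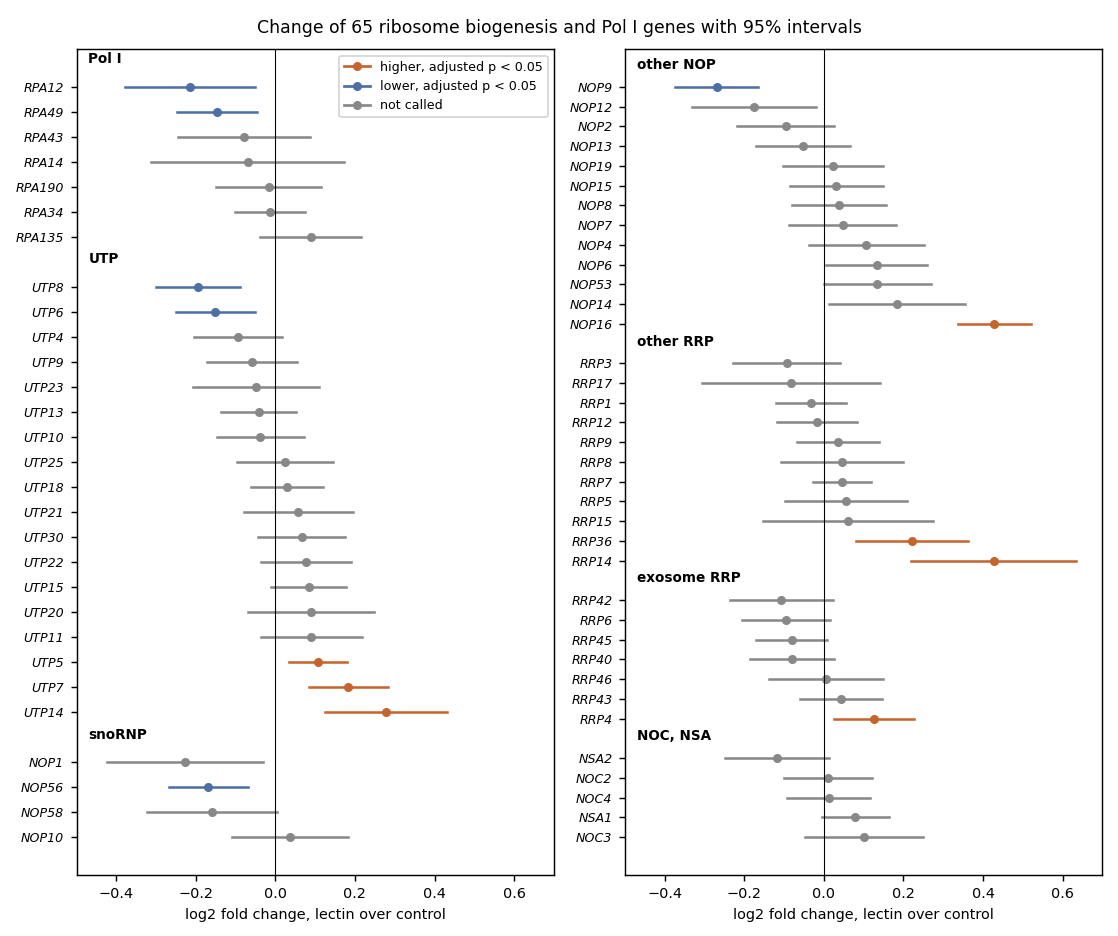
Each point is the log2 fold change (lectin over control, DESeq2) of 1 gene and each bar its 95% Wald interval, with genes grouped by role. The 7 genes called higher (orange) and the 6 called lower (blue) fall in 6 of the 7 role groups, and NOP16 and RRP14 lie farthest to the right at 0.43.

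The precision of the 52 uncalled genes was as follows. The 95% interval of the log2 fold change lay wholly within 0.25 of 0 in 41 of them. Over all 52, the lowest bound was -0.42, for NOP1, and the highest was 0.36, for NOP14. A gene in this group can therefore have changed by an amount inside its interval, and the intervals are per gene, with no adjustment for their number. In NOP1 and NOP12 the interval lay wholly below 0 and in NOP6 and NOP14 wholly above it, although no adjusted p of these genes was under 0.05.

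The summed level of the 65 genes differed by less than the spread between samples. Their share of all counts was 0.563% ± 0.0200 without and 0.565% ± 0.0259 with the lectin (SD, n = 6 each). Averaged over the members, the log2 normalized count lay between -0.03 (control 8) and 0.06 (control 4) from the control mean in the controls and between -0.04 (lectin 5) and 0.07 (lectin 2) in the lectin samples, so that the groups overlapped fully. Total counts were 17303313 to 21354011 per library, and the mean normalized count of a member in the control group ran from 198 for RRP17 to 6085 for RPA190. Intervals cover the spread of read counts, and PCR can copy 1 molecule into several reads.

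1 library stood apart. In lectin 5, the largest library, the 7 members with a coding region of at least 3000 bases lay 0.23 below their control mean on the log2 scale, while the 23 members under 1000 bases lay 0.06 above it. In the other 5 lectin samples the long members lay 0.02 to 0.14 above the control mean. Over the 65 members, Spearman's rho between coding length and the deviation from the control mean was -0.58 in lectin 5 and from -0.32 to 0.32 in the other 11 samples, given as a description, since the genes of a sample share its library. Over 5771 protein-coding genes it was -0.29 in lectin 5 and -0.28 in control 3. Long genes outside the members moved in the same directions. Of these 5771, the genes of at least 3000 bases lay on average 0.08 below the control mean in lectin 5. They lay 0.06 (lectin 8) to 0.12 (lectin 2) above it in the other lectin samples, and from -0.04 to 0.04 in the controls. Without lectin 5, 22 members were called (33.8%, against 38.9% of all genes), 13 higher and 9 lower. These held all 13 genes called on 12 samples and 9 further ones. The 9 were NOP4, NOP12, NOP14, NOP58, RPA135, RRP5, RRP42, UTP20 and UTP21, and 3 of them (RPA135, RRP5 and UTP20) are among the 7 long members. The part of gene length in the calls was not tested.

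**Figure D2:**
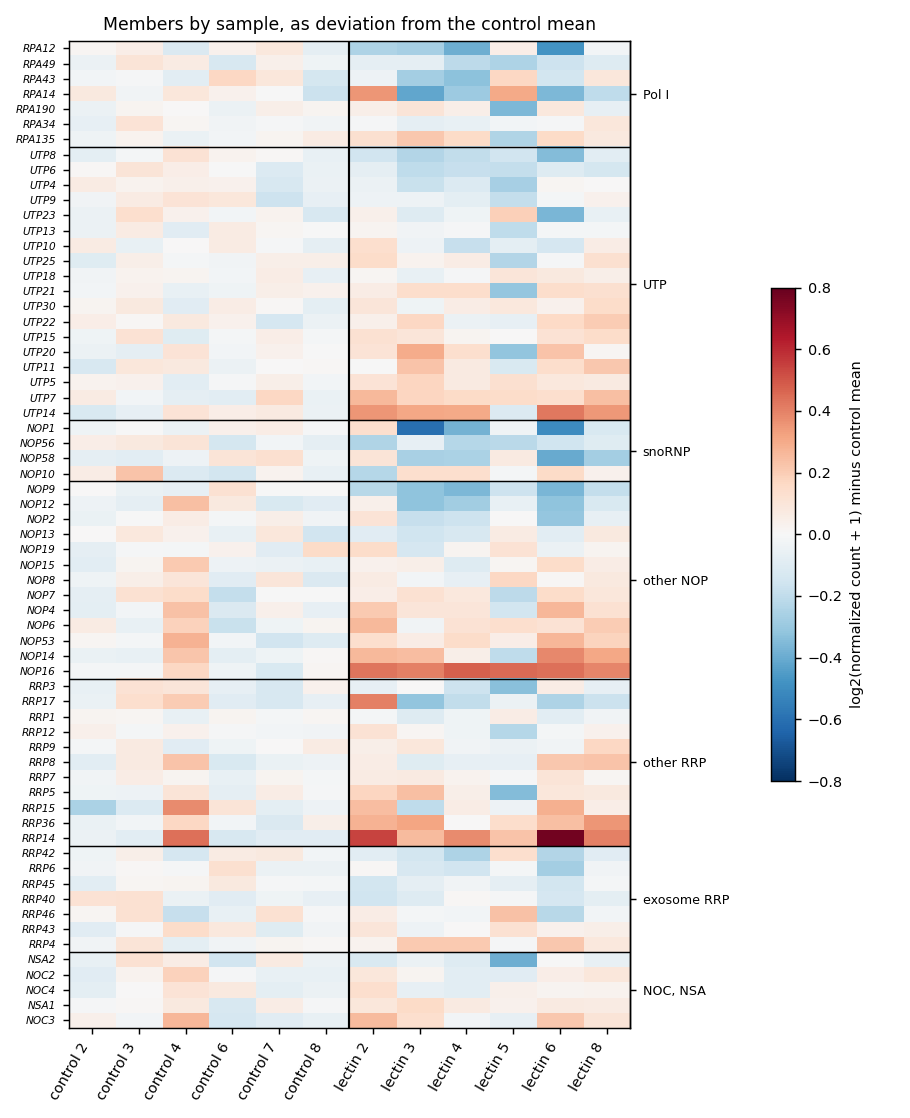
Rows are the 65 members by role, columns the 12 samples, and the colour is log2(normalized count + 1) minus the gene's control mean. The NOP16 row is red in all 6 lectin samples, while most rows are pale, and the lectin 5 column is blue for long genes such as RPA190 and UTP20.

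Many of these genes carry 2 promoter elements that are used as signatures of the regulon, PAC and RRPE. Both were searched for as their core letters, GATGAG for PAC and AAAAATTT for RRPE, on both strands of the 300 bases from 250 before to 50 after the start of each coding region. Of the 65 members, 83.1% held the PAC core, against 20.4% of 6001 protein-coding genes, and 75.4% held the RRPE core, against 14.1%. Both cores were in 42 members (64.6%, against 5.63% of all), and 4 members held neither (6.15%, against 71.1%). Matches before the start lay at a median of 119 bases upstream for PAC and 137 for RRPE.

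**Figure D3:**
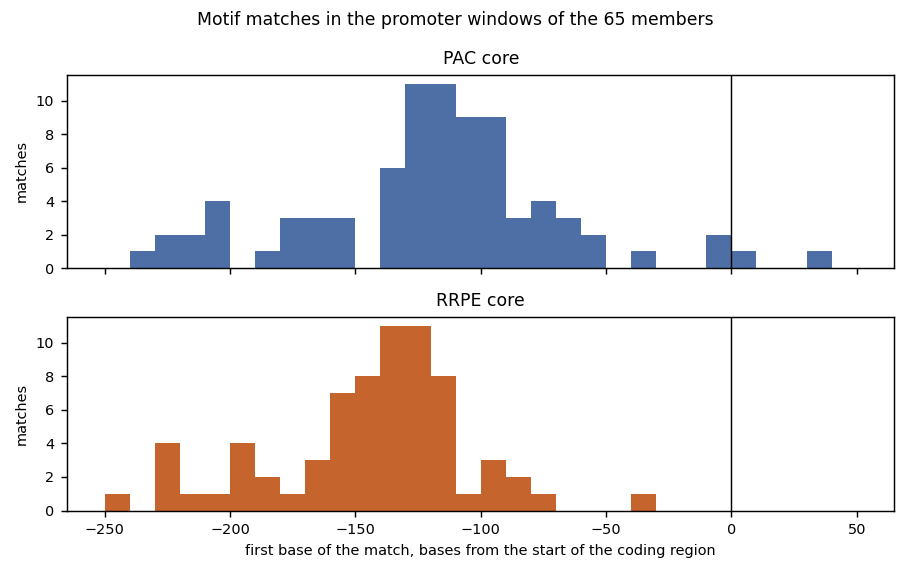
Counts of motif matches (vertical axis) by the position of their first base relative to the start of the coding region, in 10-base bins, over the 65 members. PAC matches gather near 119 and RRPE matches near 137 bases before the start.

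Members with and without the elements are described by their counts, with no test of a difference between the classes. The 42 members with both cores had a median log2 fold change of -0.02, with 4 called higher and 4 lower, while the 12 with only PAC had a median of 0.05, with 3 higher and 1 lower. The 7 with only RRPE had a median of 0.07 and no call, and the 4 with neither had a median of -0.04 and 1 lower call. Over all tested genes with both cores, 50 of 335 were called higher and 50 lower. The windows below are those of 3 genes with both cores that were higher with the lectin, NOP16, RRP14 and UTP14, and of RPA12 (lower), which has neither. They were read from the RefSeq R64 genome in the direction of the gene, at chrV:156553-156852 on the plus strand, chrXI:282280-282579 on the minus strand, chrXIII:82840-83139 on the plus strand and chrX:554945-555244 on the plus strand. Capitals mark matches to either core on either strand.
NOP16: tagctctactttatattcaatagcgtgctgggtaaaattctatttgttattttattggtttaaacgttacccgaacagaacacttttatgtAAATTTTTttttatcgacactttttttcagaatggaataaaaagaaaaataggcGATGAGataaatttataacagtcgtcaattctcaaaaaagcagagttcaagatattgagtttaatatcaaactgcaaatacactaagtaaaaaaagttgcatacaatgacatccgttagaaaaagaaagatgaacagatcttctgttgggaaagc
RRP14: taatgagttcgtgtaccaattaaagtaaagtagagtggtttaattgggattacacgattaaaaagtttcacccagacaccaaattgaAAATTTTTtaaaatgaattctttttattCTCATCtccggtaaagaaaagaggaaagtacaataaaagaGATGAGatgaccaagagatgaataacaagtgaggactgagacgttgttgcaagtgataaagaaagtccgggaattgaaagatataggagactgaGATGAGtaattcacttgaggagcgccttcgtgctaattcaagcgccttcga
UTP14: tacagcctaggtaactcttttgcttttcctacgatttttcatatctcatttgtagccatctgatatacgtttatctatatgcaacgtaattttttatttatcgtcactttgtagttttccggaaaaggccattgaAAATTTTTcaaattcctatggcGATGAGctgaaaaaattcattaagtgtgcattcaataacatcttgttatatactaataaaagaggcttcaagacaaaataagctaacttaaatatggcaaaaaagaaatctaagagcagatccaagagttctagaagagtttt
RPA12: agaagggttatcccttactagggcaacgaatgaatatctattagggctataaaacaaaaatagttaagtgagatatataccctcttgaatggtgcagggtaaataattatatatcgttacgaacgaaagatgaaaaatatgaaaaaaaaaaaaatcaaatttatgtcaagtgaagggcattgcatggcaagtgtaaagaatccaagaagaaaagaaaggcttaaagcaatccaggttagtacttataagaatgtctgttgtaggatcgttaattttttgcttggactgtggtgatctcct
In NOP16, RRP14 and UTP14 an RRPE core on the opposite strand begins 159, 163 and 115 bases before the start, and a PAC core on the gene's own strand follows at 105, 95 and 93 bases. RRP14 also holds a PAC core on the opposite strand at 135 bases, between its RRPE core and the PAC core at 95. A further PAC match in RRP14 begins 1 base before the start and includes the start codon. A match is a string of letters and not a shown binding site.

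The RNA polymerase I subunits were the first role group. None of the 7 rose, 2 fell (28.6%, against 31.5% of all tested genes called) and 5 were not called, and the median log2 fold change was -0.07. RPA49, which with RPA34 forms a dimer that acts in initiation and elongation, had 1790, 1965 and 2106 normalized counts (lowest, median and highest) in the controls and 1648, 1784 and 1866 with the lectin. Every lectin sample lay below 5 of the 6 controls, and control 6 lay within the lectin range. RPA49 fell by 0.15 on the log2 scale (log2 fold change -0.15 ± 0.051 SE, adjusted p = 0.0173). RPA12, the small subunit needed to cleave stalled transcripts, had 672, 739 and 772 in the controls and 522, 609 and 754 with the lectin. Lectin 5 and lectin 8 lay within the range of the controls and the other 4 lectin samples below it. RPA12 fell by 0.21 (log2 fold change -0.21 ± 0.083 SE, adjusted p = 0.0355). Both calls were near the threshold. RPA49 was not called without control 3 (adjusted p = 0.0609) or lectin 4 (adjusted p = 0.0532), and RPA12 was not called in 8 of the 12 fits that left out 1 sample, with an adjusted p of up to 0.101 without lectin 6.

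The 2 large subunits that form the active centre did not pass the test on 12 samples. RPA190 had 5879, 6136 and 6281 normalized counts in the controls and 4732, 6276 and 6541 with the lectin (log2 fold change -0.02 ± 0.067 SE, adjusted p = 0.879). Only lectin 5 and lectin 8 lay below the controls. RPA135 had 5078, 5274 and 5523 in the controls and 4470, 5814 and 6130 with the lectin (0.09 ± 0.065 SE, adjusted p = 0.306). Every lectin sample other than lectin 5 lay above every control. Lectin 5 was the lowest lectin sample in both genes, so that leaving it out raises both estimates. Without lectin 5, RPA135 was called higher (log2 fold change 0.15, adjusted p = 0.000407) and RPA190 changed sign without a call (0.04, adjusted p = 0.392). RPA135 was called in only 3 of 21 alternatives. RPA190 and RPA43 are neighbours on opposite strands, with 804 bases between them. RPA43 and RPA14, the partners of the stalk that meets the initiation factor, had log2 fold changes of -0.08 ± 0.085 and -0.07 ± 0.12 (SE; adjusted p = 0.506 and 0.714), and RPA34 had -0.01 ± 0.044 (SE, adjusted p = 0.853). RPA14 was wide in the lectin group, at 523 in lectin 2 and 507 in lectin 5 but 307 to 356 in the other 4, against 364 to 436 in the controls. It is also the only member that overlaps another annotated gene in the reference (YDR157W). How reads on overlapping genes were counted is not given, so that the count of RPA14 may be less certain. The part of the overlap in the spread between samples was not tested. Some features of the count table are not in that reference, and overlaps of the members with those were not examined.

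The subunits had different levels. Per kilobase of coding region, normalized counts in the controls were 1940 ± 83.0 for RPA34, 1927 ± 101 for RPA12, 1571 ± 93.9 for RPA49, 1462 ± 47.1 for RPA135, 1218 ± 32.7 for RPA190, 992 ± 64.2 for RPA14 and 790 ± 61.7 for RPA43 (SD, n = 6). The ranges over samples overlapped between the neighbours RPA34 and RPA12, RPA49 and RPA135, and RPA14 and RPA43, and did not overlap between RPA12 and RPA49, RPA135 and RPA190, or RPA190 and RPA14. Over all members the level per kilobase in the controls ran from 276 ± 12.5 for UTP20 to 15100 ± 1475 for NOP10 (SD, n = 6). NOP10 has the shortest coding region, of 177 bases, and these lengths count coding bases only. The part of gene length in the order of the levels was not tested.

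Of the 18 UTP genes, which encode parts of the small-subunit processome, 3 rose, 2 fell and 13 were not called, with a median log2 fold change of 0.04. The called share was 27.8%, against 31.5% of all tested genes. UTP14, which activates the helicase that releases the U3 guide RNA from the precursor, had 1381, 1503 and 1622 normalized counts in the controls and 1388, 1885 and 2015 with the lectin. Lectin 5 lay among the controls at 1388 and the other 5 lectin samples lay above every control. UTP14 rose by 0.28 ± 0.078 (log2, SE; adjusted p = 0.00221), and by 0.35 without lectin 5 (adjusted p = 1.7e-10). ECM16, the gene of that helicase, is not a member and rose by a similar amount, from 1978 ± 78.3 to 2404 ± 280 normalized counts (SD, n = 6; log2 fold change 0.28 ± 0.072 SE, adjusted p = 0.000733).

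UTP7, a scaffold protein of the processome, had 1378, 1424 and 1641 in the controls and 1607, 1636 and 1751 with the lectin. Control 7 was the only control inside the range of the lectin samples. UTP7 rose by 0.18 ± 0.051 (log2, SE; adjusted p = 0.00185). UTP8 went the other way, with 1050, 1107 and 1201 in the controls and 872, 983 and 1048 with the lectin. The groups did not overlap, although control 2 and lectin 8 were nearly equal. UTP8 fell by 0.19 on the log2 scale (-0.19 ± 0.053 SE, adjusted p = 0.00168). UTP8 belongs to the UTP-A subcomplex, which binds the 5′ end of the nascent precursor, and so does UTP5, which rose by 0.11 ± 0.037 (log2, SE; adjusted p = 0.0178). UTP5 had 2020 to 2220 in the controls and 2252 to 2414 with the lectin, with no overlap, so that transcripts of these UTP-A genes changed in opposite directions. The other UTP-A members, UTP4, UTP9, UTP10 and UTP15, were not called, with log2 fold changes of -0.09, -0.06, -0.04 and 0.08. In the UTP-B subcomplex UTP6 fell by 0.15 (-0.15 ± 0.051 SE, adjusted p = 0.0129) and UTP13, UTP18 and UTP21 were not called, with log2 fold changes of -0.04, 0.03 and 0.06. UTP6 was not called without control 3 (adjusted p = 0.0504) and UTP5 was not called without lectin 3 (adjusted p = 0.0616).

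**Figure D4:**
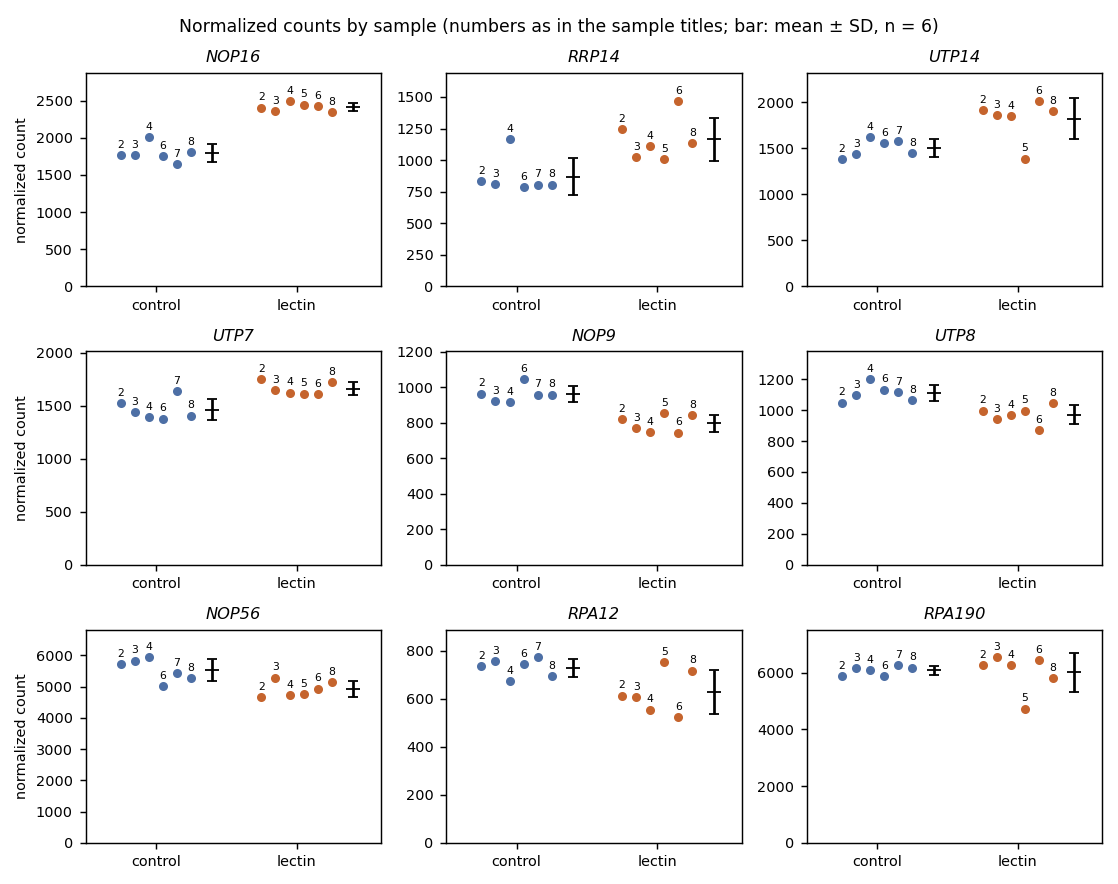
Normalized counts (vertical axis, from 0) of 9 members in every sample, numbered as in the sample titles, with the mean and SD of each group of 6 as a black bar. NOP16 and NOP9 separate the groups in all 12 samples, while UTP14 and RPA190 each have lectin 5 below the other lectin samples.

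The proteins of the modification snoRNPs had the lowest median of the role groups, -0.16 over 4 genes, of which 1 fell and 3 were not called. NOP56, a core protein of the box C/D particles, had 5013, 5581 and 5932 normalized counts in the controls and 4673, 4850 and 5287 with the lectin. Lectin 2, 4, 5 and 6 lay below every control, and lectin 3 and 8 within their range. NOP56 fell by 0.17 on the log2 scale (-0.17 ± 0.051 SE, adjusted p = 0.00474). Its partners had similar estimates with wider errors. NOP1, the yeast fibrillarin and the methyltransferase of these particles, had 3843, 3959 and 4140 in the controls and 2620, 3360 and 4363 with the lectin (log2 fold change -0.23 ± 0.10 SE, adjusted p = 0.0692). Lectin 3, 4, 6 and 8 lay below every control, lectin 5 within their range and lectin 2 above every control. NOP58, the other core protein, had 3247, 3358 and 3770 in the controls and 2605, 2882 and 3700 with the lectin (-0.16 ± 0.083 SE, adjusted p = 0.130), and again lectin 2 and lectin 5 lay among the controls and the other 4 below them. Lectin 2 was the highest lectin sample in both genes, so that leaving it out lowers both estimates. Without lectin 2 both were called lower (NOP1 -0.31, adjusted p = 0.00281, and NOP58 -0.22, adjusted p = 0.0202). NOP58 was also called without lectin 5 (-0.21, adjusted p = 0.0196). Each of the 2 genes was called in only 2 of 21 alternatives. NOP10, of the H/ACA particles, had a log2 fold change of 0.04 ± 0.074 (SE, adjusted p = 0.749).

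Among the 13 other NOP genes, 1 rose, 1 fell and 11 were not called (15.4% called, against 31.5% of all tested genes). NOP16, which encodes a protein of early large-subunit precursors, showed the clearest change of all members. It had 1640, 1768 and 2008 normalized counts in the controls and 2340, 2414 and 2493 with the lectin. The 6 lectin samples lay close together and far above every control, lectin 5 included. Its mean went from 1790 to 2410, a log2 fold change of 0.43 ± 0.047 (SE, adjusted p = 8.4e-18; 1.35-fold, 95% interval 1.26 to 1.44). NOP16 lies on chromosome V, and its neighbours did not share the direction. MNN1, 994 bases upstream on the same strand, had a log2 fold change of -0.43 (adjusted p = 2.9e-22), and PMI40, 237 bases downstream on the other strand, of -0.19 (adjusted p = 0.0259).

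NOP9, an RNA-binding protein of the small-subunit pathway, was the largest decrease. It had 919, 959 and 1046 in the controls and 744, 796 and 855 with the lectin, with no overlap. Its log2 fold change was -0.27 ± 0.054 (SE, adjusted p = 7e-06), or 0.830-fold with a 95% interval of 0.771 to 0.892. NOP12, of the large-subunit pathway, had 710, 745 and 914 in the controls and 619, 675 and 796 with the lectin (-0.18 ± 0.080 SE, adjusted p = 0.0784). Its groups overlapped, and it was called lower without lectin 2 (adjusted p = 0.0192) or lectin 5 (adjusted p = 0.0401). Lectin 2 and lectin 5 were its highest lectin samples, and NOP12 was called in only 3 of 21 alternatives. The other 10 uncalled NOP genes ran from -0.10 for NOP2, a ribosomal RNA methyltransferase, to 0.18 for NOP14, a protein of the processome.

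Of the 11 RRP genes outside the exosome, 2 rose, none fell and 9 were not called (18.2% called, against 31.5% of all tested genes). RRP14, which acts on precursors of both subunits, had 786, 808 and 1164 normalized counts in the controls and 1008, 1124 and 1468 with the lectin. Control 4, at 1164, lay inside the lectin range, and the other 5 controls, at 786 to 831, lay below every lectin sample. RRP14 rose by 0.43 ± 0.11 (log2, SE; adjusted p = 0.000468), an estimate close to that of NOP16 with a larger error, and a 95% interval of 1.16 to 1.55-fold. RRP36, needed for early cuts in the small-subunit part of the precursor, had 358, 382 and 435 in the controls and 389, 464 and 496 with the lectin, with overlap through lectin 4 and lectin 5. RRP36 rose by 0.22 ± 0.072 (log2, SE; adjusted p = 0.00902). RRP3, a helicase for the small-subunit RNA, had 978, 1062 and 1161 in the controls and 846, 1022 and 1116 with the lectin (-0.09 ± 0.069 SE, adjusted p = 0.312), and its groups overlapped. The other 8 had estimates from -0.08 for RRP17 to 0.06 for RRP15, the genes with the lowest counts among the members.

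Of the 7 exosome genes, 1 rose and 6 were not called (14.3% called, against 31.5% of all tested genes), with a median of -0.08. RRP4, a subunit of the cap that guides RNA into the exosome, had 2917, 3064 and 3309 normalized counts in the controls and 3064, 3416 and 3586 with the lectin, with overlap. RRP4 rose by 0.13 ± 0.052 (log2, SE; adjusted p = 0.0477) in DESeq2 but was not called by edgeR (adjusted p = 0.0655), and it was called in 7 of 21 alternatives. RRP45, of the ring, had 993 to 1111 in the controls and 952 to 1042 with the lectin (-0.08 ± 0.045 SE, adjusted p = 0.161). RRP6, the nuclear exonuclease attached to the ring, had 1077 to 1217 and 923 to 1125 (-0.10 ± 0.056 SE, adjusted p = 0.191). Both sets of groups overlapped. In the exosome list outside the members, which includes its cofactors, 6 of 14 genes rose and 1 fell, with a median of 0.10. The highest was MPP6, which binds the exosome and rose from 267 ± 25.4 to 349 ± 48.5 normalized counts (SD, n = 6; log2 fold change 0.38 ± 0.095 SE, adjusted p = 0.000486).

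None of the 5 NOC and NSA genes was called, against 31.5% of all tested genes. NSA1, of early large-subunit precursors, had 1495 to 1727 in the controls and 1677 to 1822 with the lectin (0.08 ± 0.043 SE, adjusted p = 0.152). NSA2, of the same pathway, had 1682 to 2032 and 1426 to 1867 (-0.12 ± 0.067 SE, adjusted p = 0.167), with lectin 5 lowest. NOC3, which accompanies large-subunit precursors out of the nucleolus, had 675 to 889 and 708 to 882 (0.10 ± 0.076 SE, adjusted p = 0.318). In all 3 the groups overlapped. NOC2 and NOC4 had estimates of 0.01 each.

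Other genes of the pathway were taken from lists written by hand. Over 160 distinct further biogenesis genes, 26 rose and 21 fell, and the median log2 fold change was 0.03. The called genes were 29.4% of these, against 31.5% of all tested genes (15.4% higher and 16.1% lower). Of 44 further genes of the small-subunit processome 6 rose and 4 fell (22.7%), and of 70 for large-subunit assembly 10 rose and 10 fell (28.6%). Among 19 partners and factors of RNA polymerase I, 1 rose and 4 fell (26.3%). HMO1, which binds ribosomal DNA and ribosomal protein promoters, fell from 2139 ± 65.4 to 1737 ± 190 normalized counts (SD, n = 6; log2 fold change -0.30 ± 0.064 SE, adjusted p = 3.1e-05). RRN3, the initiation factor that recruits the polymerase, had a log2 fold change of 0.03 ± 0.048 (SE, adjusted p = 0.642). Among 14 further snoRNP genes 3 rose and 2 fell (35.7%). GAR1 of the H/ACA particles fell by 0.28 (-0.28 ± 0.056 SE, adjusted p = 1.1e-05), and RVB2 fell by 0.15 (-0.15 ± 0.041 SE, adjusted p = 0.00122). TAH1 and PIH1, which help assemble box C/D particles, rose by 0.46 ± 0.097 and 0.23 ± 0.050 (log2, SE, adjusted p = 2.4e-05 and 4.9e-05). SRP40 also rose (log2 fold change 0.25 ± 0.079 SE, adjusted p = 0.00888), and RVB1 was not called (-0.05 ± 0.038 SE, adjusted p = 0.381).

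The regulators and the other polymerases were set beside these. Of 20 regulator genes 5 rose and 2 fell (35.0%, against 31.5% of all tested genes). The 2 that fell were HMO1, also counted among the RNA polymerase I factors above, and RPD3 (log2 fold change -0.14 ± 0.044 SE, adjusted p = 0.00962). TOD6, which encodes a repressor that binds PAC, rose from 1556 ± 87.6 to 1832 ± 102 normalized counts (SD, n = 6; log2 fold change 0.24 ± 0.051 SE, adjusted p = 4.4e-05), while its paralog DOT6 (0.06 ± 0.15 SE, adjusted p = 0.799), the RRPE-binding repressor gene STB3 (-0.03 ± 0.069 SE, adjusted p = 0.809) and the activator gene SFP1 (0.10 ± 0.064 SE, adjusted p = 0.236) were not called. IFH1 and FHL1, which encode an activator and its partner at ribosomal protein promoters, rose by 0.36 ± 0.043 and 0.24 ± 0.080 (log2, SE; adjusted p = 3.3e-15 and 0.0109). Of 10 subunits of RNA polymerase III 1 rose and none fell, with a median of 0.02, and of 7 of RNA polymerase II 2 fell and none rose, with a median of -0.0049. Among 137 cytosolic ribosomal protein genes 3 rose and 61 fell (46.7%, against 31.5% of all tested genes), with a median of -0.13. Both cores were held by 0.730% of their promoter windows. The difference between that list and the members was not tested.

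**Figure D5:**
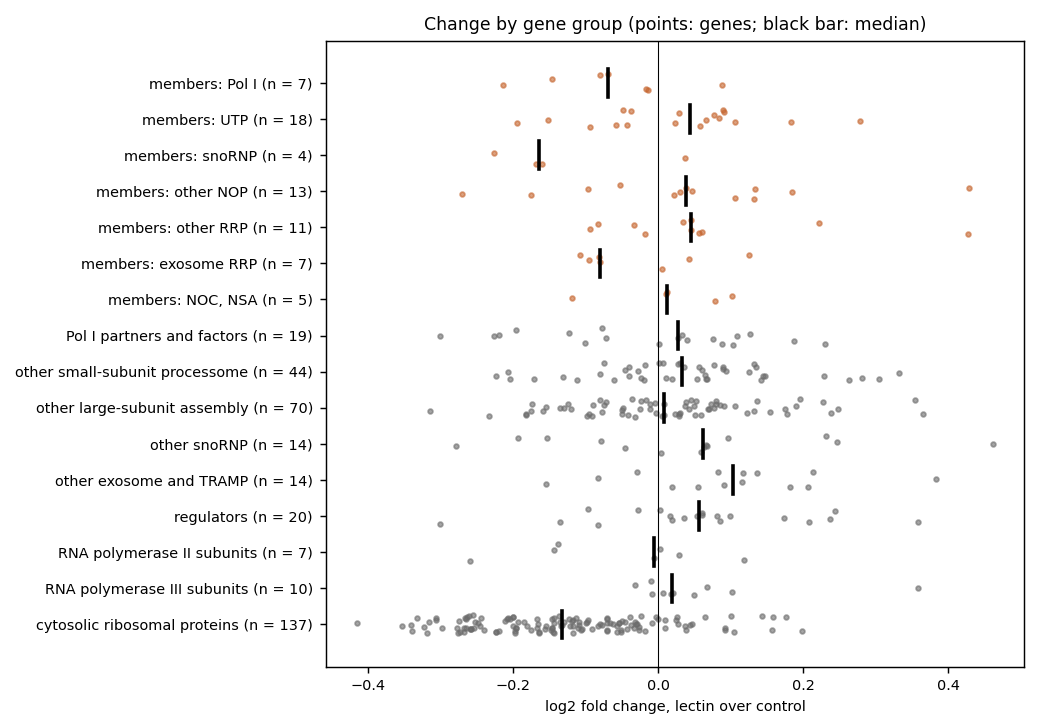
Each point is the log2 fold change (lectin over control) of 1 gene, by list, with the members in orange, other genes in grey and the median of each list as a black bar. The member groups have medians from -0.16 (snoRNP) to 0.04, and the cytosolic ribosomal proteins have a median of -0.13.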

How the data were processed

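Raw read counts per gene were deposited by the authors for 12 samples. Per the labels and the series' design text, paired-end reads of poly-A selected, strand-specific libraries were trimmed, aligned with HISAT2 and counted with featureCounts, and the submitters' processing notes name fastp and the R64 genome build. Versions, the annotation, the strand setting and the treatment of reads on overlapping genes are not given in the sources used here.

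Identifiers were matched to the RefSeq R64 gene table (6047 of 7192). A gene was tested where 6 or more samples had 10 or more counts (6237 genes), with the DESeq2 1.42.0 Wald test (R 4.3.3), which the series' design text names, lectin against control, scaled by median-of-ratios and with p-values adjusted by Benjamini-Hochberg. Log2 fold changes are unshrunken. edgeR 4.0.16 (quasi-likelihood) and limma-voom (limma 3.58.1) were alternatives, with other scalings, other filters, a replicate block and each sample left out in turn. The fits were tested on simulated data. Intervals at 95% are Wald intervals. Promoter windows and coding lengths came from the R64 reference, and no member had a copy of at least 90% identity over at least 100 bases (BLAST 2.17.0). Ribosomal protein genes were taken by RPL, RPS and RPP names, without RPP1, a subunit of RNase P. A promoter window of a further called gene is not reported here. The members, roles and lists were chosen with earlier results of these data known. Genes given in full are every RPA gene and, in each other role, the 3 with the smallest unadjusted p. UTP5 and UTP6 (as called genes), NOP6, NOP10, UTP4, UTP9, UTP10, UTP13, UTP15, UTP18, UTP21, NOC2, NOC4, RRP15 and RRP17, genes marking the end of a range, and the genes outside the members were named after their values were seen.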

Additional observations from a re-analysis of the deposited data

Results flagged for a closer look

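In the 27 members given in full or called, each with 2 groups of 6 values (54 groups), 6 groups had a sample at 1 end that stood off from its neighbour by more than Dixon's test allows at the 95% level. Chance gives about 1 in 20, or 2.7. 3 of the 6 were lectin 5, each as the lowest lectin sample: RPA135 at 4470 normalized counts against 5580 to 6130 in the other lectin samples, UTP14 at 1388 against 1852 to 2015, and NSA2 at 1426 against 1715 to 1867. RRP14 was at 1164 in control 4, against 785.7 to 831.1 in the other controls. In control 6, NOP9 was at 1046 against 918.7 to 964.3 and RRP6 at 1217 against 1077 to 1124.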

How the results depend on the processing

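Over the 21 alternatives, 7 members were called each time: NOP16, NOP56, NOP9, RRP14, UTP14, UTP7 and UTP8. NOP16 stayed between 0.40 and 0.46 on the log2 scale, and RRP14 between 0.35 and 0.53. The number of members called ran from 10 to 22 with 1 sample left out (15.4% to 33.8%, with 6 to 13 higher and 3 to 9 lower). It was highest without lectin 5 and, for lower calls, lowest without control 3. In the same fits the share of all genes called ran from 26.4% without control 6 to 38.9% without lectin 5. The members' median log2 fold change ran from -0.0023 to 0.030. With 1 sample left out, RPA34 ran from -0.035 to 0.0095, changing sign without control 3, and RPA190 from -0.043 to 0.043, changing sign without lectin 5. None of the 3 other scalings moved the number of members called by more than 1 from 13. Under these scalings 29.6% to 31.5% of all genes were called. RRP4 was the gene lost with edgeR, limma-voom, 2 of the scalings and the filter of at least 1 count.

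5 numbers occur in the titles of both groups, and nothing in the labels pairs those samples. Deviations from the group means correlated between same-numbered samples from -0.12 to 0.19. With the number as a replicate block on 10 samples, 12 members were called (18.5%, against 27.9% of all genes), 9 of them among the 13. RPA49 (adjusted p = 0.166), RRP36 (0.0891), UTP5 (0.125) and UTP6 (0.0879) were not, NOP1, NOP14 and RPA135 were added, and RPA190 was at 0.052. Without the block the same 10 samples gave 19 (29.2%, against 37.6% of all genes), with 12 higher, and RPA190 at 0.053. RPA49 was also lost, and NOP14 and RPA135 were also added, on these samples without the block. The cause was not tested. Of 273 values of the called members under the alternatives 242 kept direction and call and 31 lost the call. Of 294 of the uncalled members given in full, 280 kept both, 10 became calls and 4 changed sign. RRP17 and RRP15, the members with the fewest counts, had SEs of 0.115 and 0.109, against a median of 0.0616 over the members.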
